A study of Mus musculus with 14 samples.

Results

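RNA was compared between mouse embryonic stem cells without the 3 active DNA methyltransferases, Dnmt1, Dnmt3a and Dnmt3b (TKO cells), and wild-type cells of the J1 line, both given the vehicle DMSO, in 2 libraries each. These 4 libraries are part of a series of 14 libraries in 7 groups. J1 is a line of the 129S4/SvJae strain, and TKO is the genotype the labels give. The same pair of genotypes was also sequenced untreated in 4 further libraries, which share none with the vehicle comparison, and under PRT4165, a compound that inhibits the ubiquitin ligase of PRC1. Untreated TKO cells with a further knockout of Tet1 gave 2 libraries. These 2 enter the fit of the untreated experiment and none of the genotype comparisons given here. Nothing in the labels says whether replicates were separate cultures or whether the TKO line is 1 clone, so p-values measure the spread between these libraries, which may be technical. Of 37991 genes counted, 15684 passed a filter on counts in these groups and were tested.

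DNA methylation in mammals is placed on cytosines followed by guanine (CpG) by Dnmt3a and Dnmt3b, with the help of Dnmt3l, and is copied after replication by Dnmt1, which Uhrf1 brings to newly made DNA. In embryonic stem cells, methylated promoters are known for genes of the germ line and of the placenta, and methylation of 1 parental allele keeps imprinted genes monoallelic. Embryonic stem cells survive without these enzymes, which makes the triple knockout a common model of a genome without CpG methylation.

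The promoters of 7 genes are printed here because they show the range of CpG content among the genes that the results turn on. Each is the 250 bases before the start of the gene in RefSeq, build GRCm38.p6, written 5′ to 3′, with every CpG in capitals. Fkbp6, Dazl and Asz1, which act in germ cells, were higher in TKO cells. Ddx4 and Mael, also germ cell genes, were already expressed in wild-type cells. Mael was lower in TKO cells, and Ddx4 was slightly lower by a call that some alternatives lose. Ctsj, a placental cathepsin, and Magea4, of a cancer-testis family, were counted in TKO libraries and at 0 in both wild-type libraries.
Fkbp6, chr5:135350045-135350294, minus strand: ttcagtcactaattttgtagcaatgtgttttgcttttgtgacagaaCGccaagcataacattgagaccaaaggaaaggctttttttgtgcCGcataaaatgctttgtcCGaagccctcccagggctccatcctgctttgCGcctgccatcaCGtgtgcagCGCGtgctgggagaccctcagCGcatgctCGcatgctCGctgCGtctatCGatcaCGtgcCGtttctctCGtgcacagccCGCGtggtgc
Dazl, chr17:50293621-50293870, minus strand: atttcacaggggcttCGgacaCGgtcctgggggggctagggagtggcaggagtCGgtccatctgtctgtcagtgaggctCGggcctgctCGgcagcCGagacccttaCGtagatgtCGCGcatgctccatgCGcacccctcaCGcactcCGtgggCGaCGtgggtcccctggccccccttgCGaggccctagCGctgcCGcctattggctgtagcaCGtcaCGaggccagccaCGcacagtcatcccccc
Asz1, chr6:18109062-18109311, minus strand: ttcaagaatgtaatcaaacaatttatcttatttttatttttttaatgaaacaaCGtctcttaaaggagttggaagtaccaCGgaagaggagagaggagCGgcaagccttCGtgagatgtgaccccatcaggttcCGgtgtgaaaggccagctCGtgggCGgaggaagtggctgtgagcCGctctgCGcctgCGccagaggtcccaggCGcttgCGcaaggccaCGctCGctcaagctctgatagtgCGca
Ddx4, chr13:112652311-112652560, minus strand: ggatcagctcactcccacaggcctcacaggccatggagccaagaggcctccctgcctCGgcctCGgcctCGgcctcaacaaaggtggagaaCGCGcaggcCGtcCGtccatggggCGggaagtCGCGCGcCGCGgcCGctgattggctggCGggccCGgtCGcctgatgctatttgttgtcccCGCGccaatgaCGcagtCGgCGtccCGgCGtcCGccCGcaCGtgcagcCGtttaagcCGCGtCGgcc
Mael, chr1:166238745-166238994, minus strand: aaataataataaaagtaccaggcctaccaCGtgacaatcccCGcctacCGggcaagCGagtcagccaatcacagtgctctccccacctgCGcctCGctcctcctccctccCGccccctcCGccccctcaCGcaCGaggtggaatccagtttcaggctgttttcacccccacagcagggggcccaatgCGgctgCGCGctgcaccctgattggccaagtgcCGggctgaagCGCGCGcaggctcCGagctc
Ctsj, chr13:61005926-61006175, minus strand: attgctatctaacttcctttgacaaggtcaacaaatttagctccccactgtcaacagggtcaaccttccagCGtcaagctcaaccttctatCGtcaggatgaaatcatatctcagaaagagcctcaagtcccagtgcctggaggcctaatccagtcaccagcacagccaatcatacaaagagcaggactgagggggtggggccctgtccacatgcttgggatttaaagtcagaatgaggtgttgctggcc
Magea4, chrX:72221767-72222016, plus strand: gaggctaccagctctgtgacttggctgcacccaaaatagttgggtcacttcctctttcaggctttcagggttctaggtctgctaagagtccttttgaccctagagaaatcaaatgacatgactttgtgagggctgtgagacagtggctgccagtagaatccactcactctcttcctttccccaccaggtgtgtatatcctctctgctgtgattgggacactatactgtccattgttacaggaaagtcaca
Fkbp6 held 17 CpG, Dazl 20 and Asz1 15, against 31 in Ddx4 and 18 in Mael. Ctsj held 2 CpG and Magea4 held 0. The E-box CACGTG was found in the windows of Fkbp6, Ddx4 and Mael and in 6.88% of the 17119 promoters examined, and TCCCGC, read on both strands, in Ddx4 and Mael and in 22.4% of all promoters. These matches describe letters only.

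The TKO libraries held 28053134 and 28339620 counts and the wild-type libraries 29384595 and 33822844. Levels are given as CPM, library-scaled counts after TMM normalization, and changes as log2 fold changes of TKO over wild type with their standard error (SE), from edgeR's quasi-likelihood test. A gene was called at a Benjamini-Hochberg adjusted p under 0.05 over all genes tested. Markers of pluripotent cells stood at a summed 3145 and 3202 CPM in TKO libraries and 3922 and 3877 CPM in wild-type libraries, so both groups carry markers of the labelled cell type. The groups differed in Y-linked transcripts: Ddx3y stood at 104 and 100 CPM in TKO libraries, against 1.49 and 1.32 CPM in wild-type libraries, and all 7 Y-linked genes tested were higher in TKO cells. J1 is known as a male line. Zfy1 and Kdm5d had no count in either wild-type library. Genes of chromosome 1 were low as a group, those of chromosome 8 high, and those at the end of chromosome 14 low, so counts of the lists most touched are also given without these 3 regions. Genotype and line differ together in every value that follows and cannot be told apart. Exons of Ampd3, Axin2, Bmp4, Ccnd3, Dis3, Dnmt3a, Dnmt3l, Gata3, Gbx2, Gfra1, H19, Hspd1, Igf2, Islr2, Khdc3, Klhl13, L3mbtl2, Meg3, Ncl, Nnat, Pibf1, Piwil4, Pou5f1, Rnf2, Sall4, Tbx3, Tfcp2l1, Trp73, Xist and Yars overlap those of another gene, so their counts are less certain.

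The targeted genes fell without being lost. Dnmt1 stood at 128 and 128 CPM in TKO libraries, against 420 and 430 CPM in wild-type libraries (log2 change -1.73, SE 0.05). Dnmt3b, at 41.3 and 44.0 CPM in TKO libraries and 177 and 195 CPM in wild-type libraries, fell by 2.13 (SE 0.06), and Dnmt3a fell by 1.27 (SE 0.05). Counts per gene do not show which exons the remaining reads came from. Dnmt3l had 712 and 727 CPM in TKO libraries and 137 and 125 CPM in wild-type libraries (2.46, SE 0.05). Uhrf1 was not called, at 419 and 419 CPM in TKO libraries and 437 and 433 CPM in wild-type libraries (adjusted p = 0.26). Among 10 genes for readers of methylated CpG 6 fell and 2 rose, with Mbd2 at -0.72 (SE 0.07) and Zbtb4 at -0.88 (SE 0.22); with library size scaling alone only 3 of the 10 were lower.

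**Figure D1:**
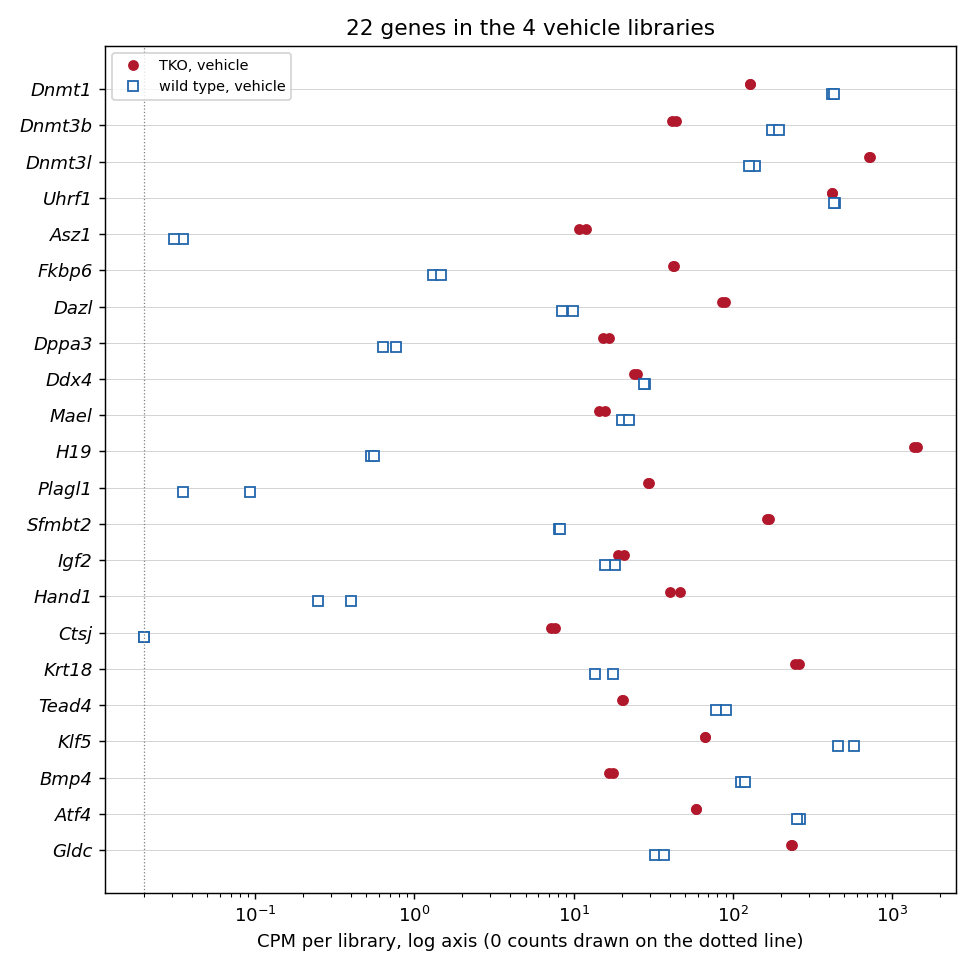
CPM on a log axis for selected genes (rows) in the 2 TKO vehicle libraries (filled circles) and the 2 wild-type vehicle libraries (open squares). The libraries of a group lie close together, and H19 and Plagl1 show the widest gaps among genes with a count in every library, while Ddx4 and Igf2 lie close together in both groups.

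Across the transcriptome 71.7% of tested genes were called, so a call by itself says little. TKO cells had 5718 genes higher (36.5%) and 5533 lower (35.3%). Changes over 2-fold were less even: 2944 genes were higher (18.8%) and 1012 lower (6.45%). With library size scaling alone, which moved the median of all genes up by 0.135, 62.5% of calls were higher in TKO cells, against 50.8% with TMM. Changes in the text are from the TMM scale.

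As a share of all genes counted, large rises were most frequent among genes at 0.1 to 10 CPM in wild-type cells. Genes were sorted by their level in the untreated wild-type libraries, which the vehicle comparison does not use. Of 4424 genes at 0.1 to 1 CPM there, 28.0% were higher in TKO vehicle cells by over 2-fold and 2.46% lower, and of 3821 genes at 1 to 10 CPM 24.4% were higher and 9.0% lower. Among 2253 genes at 100 CPM or more only 15 (0.666%) were higher by over 2-fold, while 1468 were lower at any size of change. Of 20720 genes under 0.1 CPM, 484 (2.34%) were higher by over 2-fold. Only 498 genes under 0.1 CPM and 2349 at 0.1 to 1 CPM passed the filter, so these shares depend on it. Over tested genes, 97.2%, 52.7% and 24.5% were higher by over 2-fold under 0.1, at 0.1 to 1 and at 1 to 10 CPM. Genes at 0 in wild-type cells could pass only through the TKO libraries, and genes this low could hardly be called lower. Few genes without any wild-type count became abundant: 17012 genes had 0 counts in both wild-type vehicle libraries, and 40 of these reached 1 CPM in TKO cells. Dnajc5g, Prl7d1, Ctsj and Magea4 were the 4 that reached 5 CPM.

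**Figure D2:**
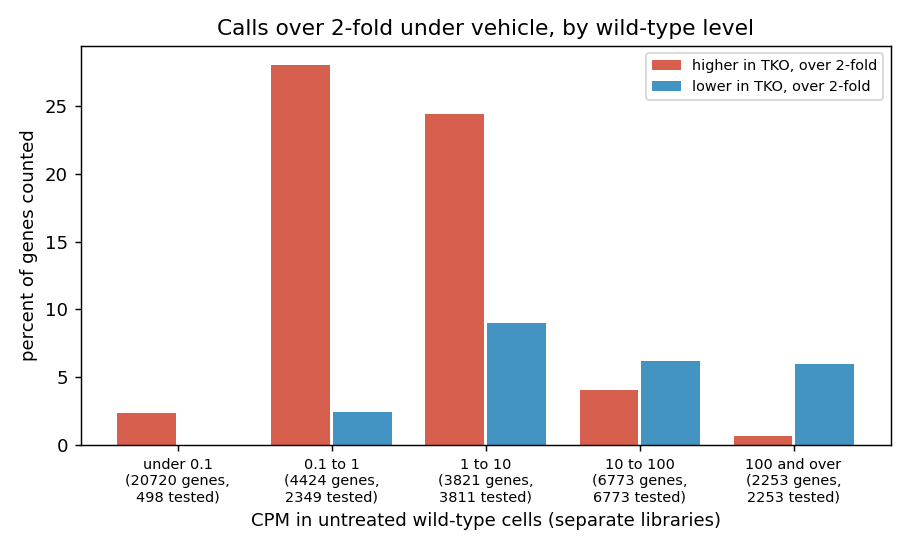
Percent of all counted genes called over 2-fold higher (red) or lower (blue) in TKO vehicle cells, by CPM in untreated wild-type cells. Rises peak at 0.1 to 1 CPM (28.0%) and drop to 0.666% at 100 CPM and over, while falls stay between 0.00965% and 9.0%. Genes that failed the filter stay in the denominator, so the peak depends on the filter.

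Over all counted genes, shares of rising genes spanned a narrower range across classes of promoter CpG content than across levels of expression. Promoters were classed as high, intermediate or low in CpG, and 9.76%, 12.3% and 12.2% of all genes in these classes were higher by over 2-fold. The classes had 93.2%, 86.4% and 37.2% of their genes tested. Over tested genes only, the shares were 10.5%, 14.2% and 32.8%, so the range depends on the denominator. Among genes under 0.1 CPM in untreated wild-type cells the shares were 13.8% of 232 high-CpG genes, 11.2% of 553 intermediate and 4.81% of 4451 low-CpG genes. At 0.1 to 1 CPM they were 41.8%, 42.0% and 34.3%, and at 1 to 10 CPM 25.6%, 24.2% and 25.2%. CACGTG was present in 6.46% of the promoters of genes higher by over 2-fold and TCCCGC in 24.6%, against 8.26% and 30.1% of the promoters of all tested genes and 6.88% and 22.4% of all promoters. Whether these shares differ was not tested.

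The separate untreated libraries gave the same direction for most large changes. Of the 2944 genes higher by over 2-fold under vehicle, 2709 were tested untreated, 80.7% were called higher there and 13 were called lower. Of the 1012 lower genes 985 were tested untreated, 91.4% were called lower and 1 was called higher. Of all genes tested untreated 51.3% were called, 26.5% higher and 24.8% lower; over 2-fold, 14.4% were higher and 8.63% lower. When all called genes are taken without the 2-fold limit, 65.5% of the higher and 58.8% of the lower ones were called the same way untreated. Under PRT4165, in libraries fitted together with these, 36.8% of tested genes were higher and 34.9% lower in TKO cells, and 17.5% and 5.76% were so by over 2-fold. There 92.8% of the 2944 higher genes and 91.1% of the 1012 lower genes were called the same way.

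**Figure D3:**
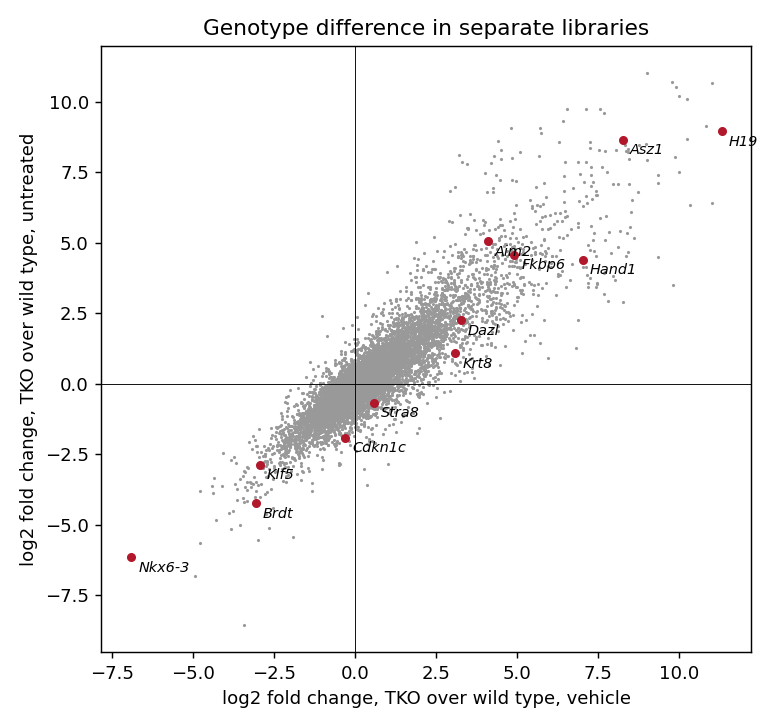
Log2 fold change of TKO over wild type under vehicle (x axis) and untreated (y axis) for each gene tested in both, with named genes in red. Most genes lie along a rising diagonal, Nkx6-3 at -6.92 and -6.16, while Stra8 stands at 0.59 and -0.68.

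Germ cell genes did not act as a block, and all tested genes were also split, with 36.5% higher and 35.3% lower. Among 18 tested genes of germ cell specification 13 rose (72.2%) and 5 fell (27.8%), with a median of 0.59, against 0.01 for all genes. Untreated, 11 of the 18 were called higher and 4 lower. Prdm1, a repressor that starts the germ cell programme, had 15.9 and 16.9 CPM in TKO libraries and 3.75 and 2.80 CPM in wild-type libraries (2.33, SE 0.13). Its partner Tfap2c had 101 and 98.7 CPM in TKO libraries, against 12.2 and 11.0 CPM in wild-type libraries (3.10, SE 0.06), while the other partner, Prdm14, was lower at 13.6 and 12 CPM, against 34.8 and 31.7 CPM in wild-type libraries (-1.38, SE 0.08). Prdm14 lies on chromosome 1, whose genes were low as a group. Dppa3, which protects the maternal genome from demethylation, stood at 16.6 and 15.3 CPM in TKO libraries and 0.637 and 0.769 CPM in wild-type libraries. Nanos3, needed for germ cell survival, rose by 1.57 (SE 0.24) and the membrane protein gene Ifitm1 by 3.03 (SE 0.06).

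Asz1, a mitochondrial scaffold of the piRNA pathway, showed the widest gap of the group, with 10.8 and 12 CPM in TKO libraries and 0.0354 and 0.0308 CPM in wild-type libraries (8.27, SE 0.30). Fkbp6, a cochaperone of the same pathway, had 41.8 and 43.0 CPM in TKO libraries, against 1.31 and 1.48 CPM in wild-type libraries (4.92, SE 0.10). Dazl, an RNA-binding protein that licenses germ cells for meiosis, had 89.5 and 85.3 CPM in TKO libraries, against 9.87 and 8.49 CPM in wild-type libraries (3.26, SE 0.07). Tdrd12, a tudor protein of piRNA production, rose by 3.07 (SE 0.07), but other members of that pathway moved down. The Argonaute genes Piwil1 and Piwil4 fell by 1.69 (SE 0.18) and 1.73 (SE 0.13), Tdrd1 fell by 1.80 (SE 0.22), and Piwil2 rose by 0.30 (SE 0.06). Of the 9 Tdrd and Piwi genes tested, 5 rose (55.6%) and 4 fell (44.4%), against 36.5% and 35.3% of all tested genes. Mael, on chromosome 1, had 14.4 and 15.8 CPM in TKO libraries and 20.1 and 22.2 CPM in wild-type libraries (-0.49, SE 0.08). Ddx4, the germ cell helicase, had 24.9 and 23.8 CPM in TKO libraries, against 27.9 and 27.6 CPM in wild-type libraries (-0.19, SE 0.07), a call lost with DESeq2, with library size only and without TKO replicate 2.

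Later germ cell genes gave mixed directions, and most spermatid genes did not pass the filter. Of 42 genes of spermatids and sperm 15 passed the filter, of which 8 rose (53.3%) and 2 fell (13.3%). Untreated, 5 were called higher and 4 lower of 14 tested. Among all tested genes 36.5% rose and 35.3% fell under vehicle. Of tested genes at 0.1 to 1 CPM in untreated wild-type cells 56.8% rose and 5.53% fell. At 1 to 10 CPM 42.3% rose and 22.5% fell. The testis forms of metabolic enzymes Ldhc and Pdha2 rose by 2.30 (SE 0.29) and 3.85 (SE 0.46), at 2.33 and 2.41 CPM for Ldhc in TKO libraries, against 0.389 and 0.554 CPM in wild-type libraries. The sperm sodium pump Atp1a4 rose by 2.02 (SE 0.19), and Tekt1, a tektin of the sperm tail, fell by 2.48 (SE 0.21). Of 34 oocyte genes 17 were tested, of which 10 rose (58.8%) and 5 fell (29.4%). Untreated, 7 were called higher and 4 lower of 16 tested, and under PRT4165 7 were higher and 7 lower. Zp3, a protein of the egg coat, had 6.84 and 6.70 CPM in TKO libraries and 1.03 and 0.923 CPM in wild-type libraries, whereas the other zona pellucida genes in the list did not pass the filter. Nlrp4c and Nlrp14, of a family with oocyte members, rose by 4.85 (SE 0.23) and 2.87 (SE 0.30). Within the subcortical maternal complex, Khdc3 rose by 1.94 (SE 0.07) and Ooep fell by 0.90 (SE 0.05). Kitl, the ligand of the Kit receptor, had 16.6 and 13.4 CPM in TKO libraries, against 0.531 and 0.646 CPM in wild-type libraries (4.65, SE 0.18). Spermatogonial genes rose in 10 and fell in 5 of 20 tested. The X-linked genes Nxf3, an mRNA export factor, and Usp26, a deubiquitinase, rose by 4.96 (SE 0.21) and 4.05 (SE 0.26), while Gfra1, the receptor subunit for the stem cell factor GDNF, fell by 2.12 (SE 0.15). The direction differed between vehicle and untreated cells for Stra8, which acts at meiotic entry, at 0.59 (SE 0.06) under vehicle and -0.68 (adjusted p = 0.0087) untreated.

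Most genes for the repressor complex that binds germ cell promoters were lower, as were most genes at 100 CPM or more. Among 12 members of the PRC1.6 and E2F6 group 8 fell (66.7%) and 3 rose, with a median of -0.39. This compares with 35.3% of all tested genes and 65.2% of those at 100 CPM or more in untreated wild-type cells. In untreated cells 6 of the 12 were called lower and 2 higher. Its DNA-binding members Max and E2f6 fell by 0.62 (SE 0.04) and 0.63 (SE 0.07), and its catalytic subunit Rnf2, on chromosome 1, had 122 and 127 CPM in TKO libraries, against 308 and 307 CPM in wild-type libraries (-1.30, SE 0.04). Mga, the large scaffold of the complex, and L3mbtl2 rose by 0.32 (SE 0.05) and 0.72 (SE 0.05). Pcgf6 had 71.0 and 70.2 CPM in TKO libraries, against 74.2 and 71.1 CPM in wild-type libraries (adjusted p = 0.45). Outside that group Zfp57, a zinc finger protein that guards methylation at imprinting control regions, fell to 314 and 322 CPM in TKO libraries, against 581 and 600 CPM in wild-type libraries.

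Imprinted genes are expressed from the allele of 1 parent, and methylation marks at their control regions set which. The counts do not separate alleles. Of 27 tested genes listed as expressed from the paternal allele 23 rose and 2 fell, with a median of 1.12. Of 28 listed as maternal 14 rose and 11 fell, with a median of 0.03. Among paternal genes, the zinc finger gene Plagl1 had 29.9 and 29.5 CPM in TKO libraries and 0.0354 and 0.0923 CPM in wild-type libraries (8.73, SE 0.20). Smoc1, a matrix protein gene, had 61.1 and 60.0 CPM in TKO libraries, against 1.63 and 2.22 CPM in wild-type libraries (4.96, SE 0.11), and Sfmbt2, a polycomb-related gene of the placenta, 169 and 163 CPM in TKO libraries, against 8.14 and 8.22 CPM in wild-type libraries. Nnat and Peg3 rose by 4.11 (SE 0.26) and 3.78 (SE 0.06), and Peg12 fell by 0.98 (SE 0.11). Mkrn3 had 6.88 and 5.66 CPM in TKO libraries, against 6.58 and 6.56 CPM in wild-type libraries (adjusted p = 0.69).

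The maternal genes moved both ways, as did all tested genes. H19, a noncoding RNA, had 1430 and 1369 CPM in TKO libraries and 0.531 and 0.554 CPM in wild-type libraries (11.32, SE 0.09). Its neighbour Igf2, which is expressed from the paternal allele, had 20.6 and 19 CPM in TKO libraries, against 18.3 and 15.7 CPM in wild-type libraries (0.22, SE 0.08), a call lost in DESeq2, without a filter and without TKO replicate 1 or wild-type replicate 2. The flippase gene Atp10a and the placental factor Ascl2 rose by 4.13 (SE 0.21) and 2.67 (SE 0.14), and the noncoding RNA Meg3 by 1.62 (SE 0.07). Cobl, an actin nucleator, and Ampd3, an AMP deaminase, fell by 1.27 (SE 0.05) and 1.32 (SE 0.13). The growth inhibitor Cdkn1c had 77.7 and 77.3 CPM in TKO libraries and 99.6 and 92.4 CPM in wild-type libraries (-0.31, SE 0.05), and it stood at -1.91 in untreated cells.

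Placental genes were mostly higher, 34 of the 41 tested over 3 lists (82.9%), with 5 lower (12.2%). Among all tested genes 36.5% were higher and 35.3% lower. Sorted by level in untreated wild-type cells, 97.2% of tested genes under 0.1 CPM and 56.8% at 0.1 to 1 CPM were higher. Trophoblast is the outer lineage of the embryo that builds the placenta, and embryonic stem cells are known to be barred from it in part by methylation. All 11 tested products of giant cells and spongiotrophoblast were higher, but 13 of the 24 counted did not pass the filter and 16 had 0 counts in both wild-type libraries, so members at 0 in wild-type cells could pass only through the TKO libraries. Summed over all 24, their level was 177 and 167 CPM in TKO libraries, against 8.74 and 7.33 CPM in wild-type libraries. In untreated cells 7 of these genes were tested and 6 were called higher. The 7 defining trophoblast markers summed to 35.1 and 32.7 CPM in TKO libraries and 6.19 and 5.66 CPM in wild-type libraries, where 4 were at 0; the part of such cells in the result was not tested. Ctsj had 7.25 and 7.61 CPM in TKO libraries and 0 counts in both wild-type libraries, which is at least 150-fold higher when 3 counts for the group stand in for 0, and the prolactin-family hormone gene Prl7d1 was at least 168-fold higher on the same floor. Among 16 trophoblast transcription factors 10 rose and 4 fell. Hand1, a factor of giant cells, had 40.5 and 46.6 CPM in TKO libraries, against 0.248 and 0.400 CPM in wild-type libraries (7.03, SE 0.16), and Gata3 had 18.4 and 17.4 CPM, against 1.24 and 1.05 CPM in wild-type libraries (3.97, SE 0.13). Tead4, which acts at the start of the lineage, moved the other way, with 20.2 and 20.5 CPM in TKO libraries and 78.2 and 90.1 CPM in wild-type libraries (-2.05, SE 0.07). Elf5, known for a promoter methylated in embryonic stem cells, had 0.944 and 0.972 CPM in TKO libraries and 0 counts in both wild-type libraries. Eomes was not called, at 3.40 and 3.52 CPM in TKO libraries and 4.49 and 4.19 CPM in wild-type libraries. In bulk RNA a few cells with much of a transcript and many cells with little of it cannot be told apart.

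Epithelial genes rose with them. Of 14 epithelial proteins of trophoblast 13 rose and 1 fell. Beside this and the counts below, 36.5% of all tested genes rose and 35.3% fell. The share that rose was 56.8% at 0.1 to 1 CPM and 42.3% at 1 to 10 CPM in untreated wild-type cells. The keratins Krt18 and Krt7 had 261 and 247 CPM and 63.4 and 62.5 CPM in TKO libraries, against 17.7 and 13.5 CPM and 2.26 and 1.94 CPM in wild-type libraries. Krt17, another keratin, fell by 2.08 (SE 0.09). Among the cadherins and the Epcam family 9 of 10 tested genes rose, and 4 of the 5 that lie outside the chromosome regions named above did. Tight and gap junction genes rose in 11 of 14 and fell in 2. Cldn4, a claudin, had 70.7 and 76.3 CPM in TKO libraries and 9.90 and 7.72 CPM in wild-type libraries (3.07, SE 0.08). The connexin gene Gjb2 rose by 5.21 (SE 0.15) and its relative Gjb5 fell by 0.57 (SE 0.06). The untreated values of these genes were smaller in part: Krt8 changed by 3.10 (SE 0.05) under vehicle and by 1.08 untreated, while Cldn4 changed by 3.15 untreated. Whether such pairs differ was not tested.

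Under vehicle, core and naive pluripotency genes fell more often than they rose, and primed genes rose more often. Of 14 core factors 8 fell and 5 rose, and with library size scaling 6 fell and 6 rose. Their untreated calls were 6 higher and 5 lower. Over all tested genes 36.5% rose and 35.3% fell. Falls made up 45.4% of genes at 10 to 100 CPM and 65.2% at 100 CPM or more in untreated wild-type cells. Zfp42, on chromosome 8, and Sall4 were a little higher in TKO cells, by 0.20 (SE 0.04) and 0.24 (SE 0.04). Pou5f1 had 535 and 573 CPM in TKO libraries and 998 and 885 CPM in wild-type libraries (-0.77, SE 0.05), and Nanog had 500 and 487 CPM in TKO libraries, against 649 and 673 CPM in wild-type libraries (-0.42, SE 0.04). Of 22 naive factors, which mark the state before implantation, 14 fell and 6 rose, and 10 were called lower and 4 higher untreated. Bmp4, a growth factor that sustains that state, had 16.8 and 17.8 CPM in TKO libraries, against 113 and 119 CPM in wild-type libraries (-2.75, SE 0.06), and the T-box factor Tbx3 had 104 and 105 CPM, against 331 and 357 CPM in wild-type libraries (-1.72, SE 0.05). Klf5 fell by 2.95 (SE 0.07) and lies in the chromosome 14 run described later, and Tfcp2l1 and Gbx2, which fell by 1.80 (SE 0.05) and 2.08 (SE 0.06), lie on chromosome 1. Without chromosomes 1 and 8 and the last eighth of chromosome 14, 9 of 15 naive factors fell and 4 rose. Klf2 rose by 1.58 (SE 0.05). Of 18 tested primed factors, which mark the state after implantation, 13 rose and 3 fell, among them Dnmt3a and Dnmt3b themselves.

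Targets of the FGF-ERK pathway, which drives exit from the naive state, fell in 13 of 21 (61.9%) and rose in 6. Among all tested genes 35.3% fell, with 45.4% at 10 to 100 CPM and 65.2% at 100 CPM or more in untreated wild-type cells. Untreated calls in this list were 7 lower and 5 higher of 20 tested. Spry2, Dusp6 and Etv4, which encode a feedback inhibitor, an ERK phosphatase and an ETS factor, fell by 1.93 (SE 0.05), 1.74 (SE 0.05) and 1.82 (SE 0.05). Spry2 also lies in the chromosome 14 run. Egr1, an immediate early gene, moved up, with 22.3 and 17.5 CPM in TKO libraries and 4.74 and 4.92 CPM in wild-type libraries. Etv5 had 337 and 357 CPM in TKO libraries, against 331 and 350 CPM in wild-type libraries (adjusted p = 0.61).

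Other signalling pathways held changes both ways, as did all tested genes, of which 36.5% rose and 35.3% fell. Notch ligands sit on 1 cell and signal to receptors on its neighbour, whose targets include Hes1. The ligand genes Dll1, Jag1 and Jag2 rose: Dll1 had 7.82 and 7.21 CPM in TKO libraries and 0.389 and 0.492 CPM in wild-type libraries, Jag1 rose by 2.76 (SE 0.10) and Jag2 by 2.64 (SE 0.06). Hes1 had 12.1 and 11.6 CPM in TKO libraries, against 67.2 and 71.7 CPM in wild-type libraries (-2.55, SE 0.07). Of 21 Notch and Hedgehog genes 14 rose and 5 fell. In the Wnt pathway 15 of 24 ligand and receptor genes rose and 9 fell, and without the chromosome regions named above 15 of 20 rose and 5 fell. Wnt6, on chromosome 1, had 3.13 and 3.55 CPM in TKO libraries, against 27.6 and 28.7 CPM in wild-type libraries, and the secreted inhibitor Sfrp1 had 25.7 and 27.1 CPM, against 119 and 127 CPM in wild-type libraries (-2.22, SE 0.06). Of 18 Wnt inhibitors and targets 12 rose and 2 fell, and the targets Axin2 and Lef1 rose by 1.86 (SE 0.14) and 2.92 (SE 0.22). In the TGF-beta pathway 7 of 19 ligand and receptor genes rose and 7 fell, which is 36.8% each way and near the shares of all genes. Of its 15 inhibitors and targets 9 rose and 4 fell, or 2 with DESeq2 or library size scaling. The activin subunit gene Inhbb, on chromosome 1, had 51.0 and 44.2 CPM in TKO libraries and 359 and 357 CPM in wild-type libraries. Smad7, a feedback inhibitor and one of the 4 that fell, stood at -1.03 (SE 0.06).

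**Figure D4:**
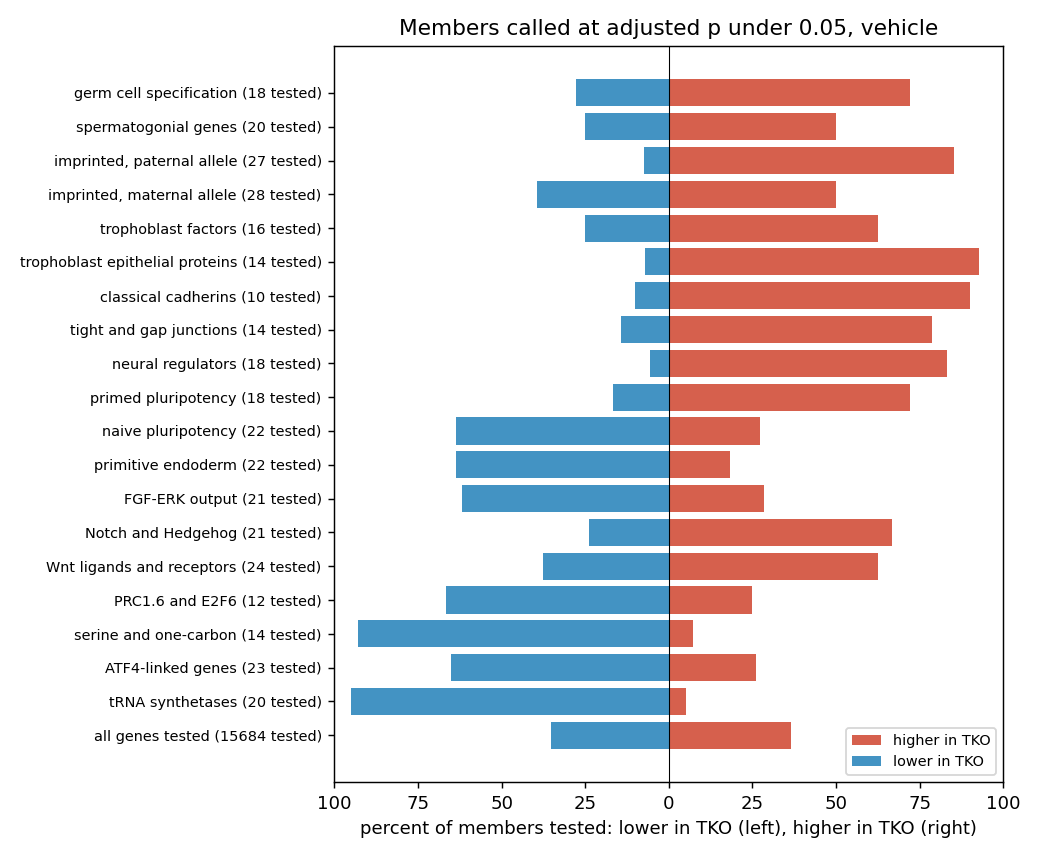
Percent of tested members of each gene list called higher in TKO vehicle cells (red, right) or lower (blue, left), with all 15684 tested genes at the bottom (36.5% higher, 35.3% lower). Placental epithelial, cadherin, neural and paternally expressed imprinted genes lean to the right, and serine, tRNA synthetase, naive and primitive endoderm genes to the left.

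Markers of other lineages moved in both directions, as did all tested genes, of which 36.5% rose and 35.3% fell. The share that rose was 97.2% of tested genes under 0.1 CPM in untreated wild-type cells. It was 56.8% at 0.1 to 1 CPM and 42.3% at 1 to 10 CPM. Neural regulators rose in 15 of 18 tested genes and fell in 1: Pax6, a factor of eye and brain, had 30.7 and 31.3 CPM in TKO libraries and 0.566 and 0.862 CPM in wild-type libraries, and Stmn2, a tubulin-binding protein of neurons, rose by 4.28 (SE 0.07). Primitive endoderm genes fell in 14 of 22 and rose in 4, with Sox7 at -2.26 (SE 0.09); with library size scaling alone 9 fell and 6 rose. Among mesoderm genes 9 of 15 were called higher and 2 lower, and of 6 tested blood markers, out of 12 counted, 4 were higher and 1, Spi1, lower, at -2.06 (SE 0.34). Cd34 had 11.2 and 11.9 CPM in TKO libraries, against 1.06 and 0.585 CPM in wild-type libraries, but Ptprc, which all white blood cells carry, was at 0 in both TKO libraries. Of the 6 defining fibroblast genes, whose sum was 10.1 and 9.82 CPM in TKO libraries and 14.4 and 13.5 CPM in wild-type libraries, 3 rose and 2 fell. Their part in the results was not tested.

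Nearly all genes that charge tRNAs and most of those for serine and folate metabolism were lower. Of 20 cytosolic tRNA synthetase genes 19 fell and 1 rose, with a median of -0.45, and the same counts were found with library size scaling. Yars, the tyrosine enzyme, had 138 and 138 CPM in TKO libraries and 250 and 237 CPM in wild-type libraries (-0.82, SE 0.04), and Gars, the glycine enzyme, fell by 0.77 (SE 0.05). Farsa, a subunit of the phenylalanine enzyme on chromosome 8, was the riser (0.35, SE 0.05), and outside the chromosome regions all 14 fell. In serine and one-carbon metabolism 13 of 14 genes fell. Phgdh, the first enzyme of serine synthesis, had 72.5 and 69.5 CPM in TKO libraries, against 169 and 156 CPM in wild-type libraries (-1.20, SE 0.05). Gldc, which cleaves glycine, was the exception, with 231 and 236 CPM in TKO libraries, against 32.4 and 36.8 CPM in wild-type libraries (2.75, SE 0.06). Atf4, the transcription factor that drives many of these genes, had 58.9 and 58.3 CPM in TKO libraries, against 262 and 254 CPM in wild-type libraries (-2.14, SE 0.05), and of 23 genes linked to it 15 fell and 6 rose. In the untreated libraries 10 of the 20 synthetase genes and 7 of the 14 serine genes were called lower and 1 of each higher. Of all tested genes 35.3% fell, and 45.4% of those at 10 to 100 CPM and 65.2% of those at 100 CPM or more in untreated wild-type cells. Against this, 35 of 47 genes named for respiratory complex I fell and 3 rose (median -0.35), as did 38 of 46 proteasome genes, with 3 rising (median -0.31), and 48 of 77 mitochondrial ribosomal genes, with 10 rising (median -0.30). Untreated, 29 of 47 complex I genes, 14 of 46 proteasome genes and 29 of 77 mitochondrial ribosomal genes were called lower, against 24.8% of all genes.

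Innate immune sensors and adaptors leaned to falls, while interferon-stimulated, MHC class I and p53 target genes leaned to rises. Of all tested genes 36.5% rose and 35.3% fell. Of 15 sensors and adaptors 10 fell and 4 rose. Aim2, a sensor of cytosolic DNA on chromosome 1, was the largest riser, with 16.1 and 14.5 CPM in TKO libraries and 0.884 and 0.893 CPM in wild-type libraries (4.10, SE 0.16), and Tmem173, the adaptor STING, fell by 2.21 (SE 0.35). Among 11 tested interferon-stimulated genes 9 rose and 1, Oas2, fell, by 1.75 (SE 0.13); another 9 of the 20 counted did not pass the filter. MHC class I pathway genes rose in 10 of 14 and fell in 1, with H2-K1 at 28.1 and 27.5 CPM in TKO libraries, against 9.76 and 9.02 CPM in wild-type libraries. Untreated, 5 of these 14 were called higher and 0 lower. The cell cycle inhibitor gene Cdkn2a had 11.4 and 10.9 CPM in TKO libraries and 0.672 and 0.677 CPM in wild-type libraries (4.03, SE 0.18), and the cyclin gene Ccnd3 had 231 and 236 CPM, against 915 and 1057 CPM in wild-type libraries (-2.08, SE 0.06). Of 19 tested p53 targets 13 rose and 2 fell, while untreated 10 were called higher and 6 lower. The p53-related gene Trp73 in that list rose by 2.94 (SE 0.13), and Pmaip1, which promotes cell death, was one of the 2 that fell, by 1.15 (SE 0.09).

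The largest falls, among genes of at least 5 CPM, began with Nkx6-3, a homeobox gene with 0.101 and 0.369 CPM in TKO libraries and 30.8 and 27.1 CPM in wild-type libraries (-6.92, SE 0.21). Ptges, a prostaglandin synthase, had 8.76 and 6.67 CPM in TKO libraries, against 137 and 131 CPM in wild-type libraries, and Islr2 had 10.9 and 10.2 CPM, against 148 and 164 CPM in wild-type libraries. The chromatin reader gene Brdt of the testis fell by 3.07 (SE 0.19). On the side of rises, Klhl13, an X-linked ubiquitin ligase adaptor, had 466 and 464 CPM in TKO libraries, against 17.0 and 15.7 CPM in wild-type libraries (4.83, SE 0.06), and Slc38a6, an amino acid transporter, had 1015 and 969 CPM, against 95.9 and 93.0 CPM in wild-type libraries (3.39, SE 0.05).

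Genes at the far end of chromosome 14 were lower as neighbours. When each chromosome was divided into 8 parts by gene order, the last part of chromosome 14 had a median change of -1.19 under vehicle, -1.32 untreated and -1.23 under PRT4165, and 37 of its 65 tested genes were lower by over 2-fold, against 6.45% of all genes. The run starts at Mzt1, a boundary set after the values were seen, and holds 57 tested genes from there to the chromosome end, of which 45 fell and 7 rose. Among the 42 of them over 10 CPM, 39 fell, with a median of -1.84. The 57 tested genes just before Mzt1 had 20 lower, 21 higher and a median of 0.03. Neighbours at the start of the run were alike: Mzt1 had 49.1 and 48.6 CPM in TKO libraries, against 193 and 172 CPM in wild-type libraries, Bora fell by 2.40 (SE 0.05), Dis3 by 2.01 (SE 0.04) and Pibf1 by 2.62 (SE 0.06). Ipo5, a nuclear import receptor further along, had 784 and 793 CPM in TKO libraries, against 3925 and 3855 CPM in wild-type libraries (-2.30, SE 0.05). The neural factor genes Zic2 and Zic5 in the run rose, by 4.36 (SE 0.10) and 2.78 (SE 0.07), and Lmo7 by 0.24 (SE 0.05). DNA was not measured here, so gene copies and transcription cannot be told apart.

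Other chromosomes stood apart by less. On chromosome 1 the median change was 0.44 under that of all other autosomal genes, and 59.4% of them were lower, against 35.3% of all genes. The first 7 of its 8 parts had medians between -0.65 and -0.39 and the last -0.07. The upper part of chromosome 8 was higher: parts 2 to 5 had medians between 0.53 and 0.59 and the last 3 between -0.16 and -0.09. X-linked genes had a median 0.32 above the autosomes, and 36.2% of 605 tested were higher by over 2-fold, against 18.8% of all genes. Xist, the RNA that silences the X in female cells, had 18.9 and 19.4 CPM in TKO libraries and 1.27 and 1.05 CPM in wild-type libraries. Among the genes with the largest fall in CPM, Ptma, Ncl and Hspd1 lie on chromosome 1, and Ipo5 and Tm9sf2 lie in the chromosome 14 run.

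**Figure D5:**
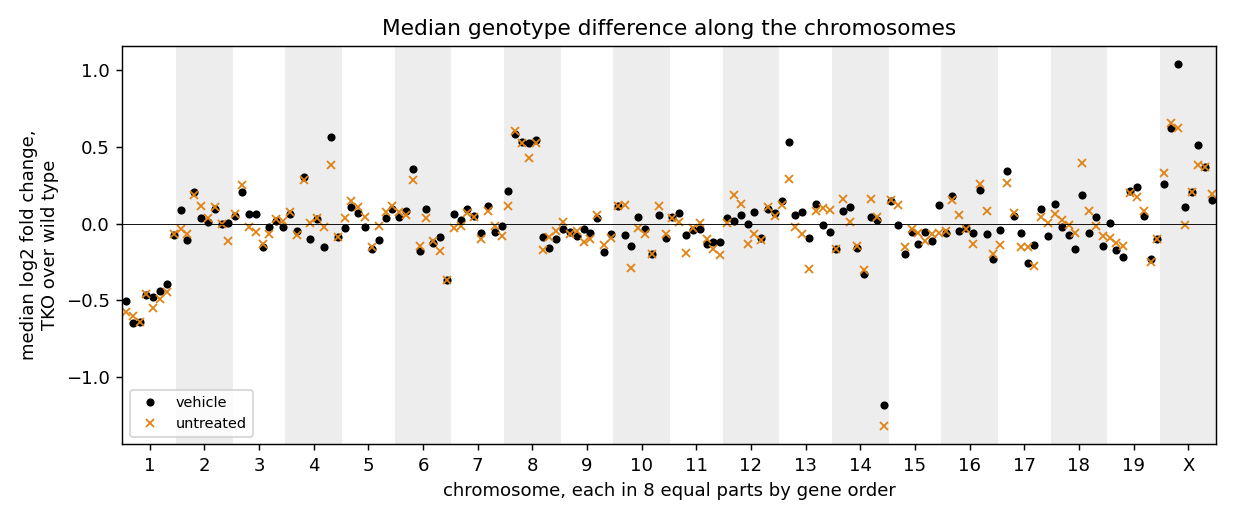
Median log2 fold change of TKO over wild type in each of 8 equal parts by gene order of chromosomes 1 to 19 and X, under vehicle (black points) and untreated (orange crosses). The last part of chromosome 14 stands at -1.19 and -1.32, chromosome 1 lies between -0.65 and -0.39 under vehicle except at its end (-0.07), and the third part of X stands at 1.04 and 0.62.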

How the data were processed

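Poly(A) RNA was sequenced, per the labels' protocols. The authors deposited raw read counts per gene, made with TopHat2 2.0.2, Bowtie 0.12.8 and HTSeq 0.5.3p9 on mm9, per the submitters' processing notes; the strand setting is not given in the sources used here. All 8 libraries of the vehicle and PRT4165 experiment entered 1 fit with edgeR 4.0.16 (R 4.3.3): filterByExpr on the vehicle groups (minimum count 10, minimum total 15), TMM, and the quasi-likelihood F-test with Benjamini-Hochberg adjustment over the 15684 genes kept, leaving 4 residual degrees of freedom. The SE is the size of the log2 change over the square root of F. The untreated experiment (6 libraries, 23354015 to 41844823 counts) was fitted by itself, with 3 residual degrees of freedom. Its 6 libraries include 2 of Tet1-knockout TKO cells, which share in the normalization and the estimate of spread. The vehicle libraries held 28053134 to 33822844 counts, and replicates differed by more than sampling noise (chi-square per degree of freedom 1.77 in TKO and 8.4 in wild-type libraries). The fitting steps were tested on simulated data.

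Of 37991 identifiers, 32919 matched a symbol. A reference annotation of another build gave names, chromosomes, gene order and overlaps, and no coordinates; promoter sequences are RefSeq's. CpG class rests on the 250 bases before the start. CACGTG and TCCCGC were searched on both strands.

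Members and gene lists were chosen with earlier results of these data known. Named genes were a set of anchors, up to 3 called members per direction of each list with the largest change, at least 1 CPM and no overlap between groups, up to 2 members not called, small lists whole, the largest changes by fold among genes of at least 5 CPM and by CPM, and the largest of each gene family. Bora, Cdkn1c, Dis3, Igf2, Jag2, Lmo7, Meg3, Mzt1, Nanos3, Nnat, Pibf1, Piwil2, Prdm1, Sall4, Stmn2, Stra8, Tfcp2l1, Zfp42 and Zic5 were named after their values were seen. Alternatives were DESeq2 1.42.0, library size scaling, other filters, fewer libraries, a replicate block and leaving out each library.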

Additional observations from a re-analysis of the deposited data

Results flagged for a closer look

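In 3 of the 204 genes examined one by one, every TKO library lay on 1 side of the wild-type libraries under vehicle and on the other side untreated; the same held for 891 of all 15684 tested genes. The difference between the experiments was not tested. Stra8 stood at 0.59 under vehicle and -0.68 untreated (adjusted p = 0.0087 untreated, edgeR). Sox21, a neural factor in the chromosome 14 run, stood at -0.26 under vehicle and 0.71 untreated. The vehicle call of Sox21 is lost with library size only (-0.12, adjusted p = 0.218, edgeR) and without TKO replicate 2 (-0.14, adjusted p = 0.207, edgeR). Pcgf6 stood at -0.04 under vehicle and 0.18 untreated, with neither value of Pcgf6 called.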

How the results depend on the processing

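The vehicle comparison called 11251 genes, against 10180 with DESeq2, 11125 with library size only, 11738 without a filter, 11531 with a filter on all 4 groups, 11115 from the 4 vehicle libraries alone and 10125 to 10928 without 1 library. The untreated count was 8095, and 5957 to 7524 without 1 library. Same-numbered vehicle libraries did not deviate together (r = -0.02). The 3 pairs of untreated groups, the Tet1-knockout TKO group included, had r of 0.12 to 0.26. With only 2 numbers, same-numbered libraries share only a number. With the replicate block 11200 genes were called under vehicle and 8714 untreated, and no named gene's vehicle call changed. Without the 2-fold limit the shares called the same way untreated dropped to 65.5% for higher and 58.8% for lower genes. With library size only, the sign turned for Uhrf1 (0.082), Pcgf6 (0.094), Mkrn3 (0.068) and Sox2 (0.024). Mkrn3 ranged from -0.21 to 0.066 without 1 library. Etv5 stood at -0.011 without a filter and ranged from -0.024 to 0.070 without 1 library, but was called higher with library size only (0.16, adjusted p = 0.00229, edgeR). The adjusted p (edgeR or DESeq2) of Ddx4 ranged from 0.00786 to 0.495 and that of Igf2 from 0.000715 to 0.332 over the alternatives. The cause was not tested. Leaving out chromosomes 1 and 8 and the end of chromosome 14 was chosen after seeing the data.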

Other observations

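Gene families outside the lists above also held genes that were low in wild-type cells. Beside the counts below, 36.5% of all tested genes rose and 35.3% fell. Of 113 cytochrome P450 genes counted, 31 were tested, of which 19 rose and 3 fell. Cyp1b1, which oxidizes steroids and foreign compounds, had 4.45 and 4.86 CPM in TKO libraries and 0.0707 and 0.185 CPM in wild-type libraries, whereas Cyp11a1, which starts steroid synthesis, fell by 1.17 (SE 0.10). Members near 0 in wild-type cells passed the filter through the TKO libraries, so the counts over tested genes say little of the family. Collagen genes rose in 20 of 34 tested and fell in 5, while their summed level was 1230 and 1254 CPM in TKO libraries and 1323 and 1339 CPM in wild-type libraries. Among Hox genes 9 of 16 tested rose and 4 fell, with Hoxc13 at 3.93 (SE 0.31) and Hoxa5 at -3.74 (SE 0.42). Serpinb9e, a placental protease inhibitor gene of a cluster of near-identical copies whose reads may be shared, had 29.7 and 26.3 CPM in TKO libraries, against 0.424 and 0.277 CPM in wild-type libraries. Of 57 replication histone genes 32 were tested, 15 rose (46.9%) and 0 fell, in libraries made from poly(A) RNA. Their summed level was low, at 53.8 and 52.2 CPM in TKO libraries and 30.1 and 28.8 CPM in wild-type libraries. In untreated cells 4 of 28 tested were called higher and 1 lower.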
